A study of Mus musculus with 22 samples.

Results

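The carbonic anhydrase cluster on mouse chromosome 3 holds Car13, Car1, Car3 and Car2, and its RNA and DNA methylation are described here in mice with a null allele of the zinc-finger gene Rlf. These 4 of the 37991 genes in the count tables were chosen by the counts of Car1, selected on their difference between Rlf mutant and wild-type E14.5 livers, with the other genes of the cluster taken for their position beside it. The RNA values of the members are therefore a description with no test, whereas methylation played no part in the choice and was tested. All 4 members were among the 14183 genes that passed the filter on low counts.

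Carbonic anhydrases are zinc enzymes that interconvert carbon dioxide and bicarbonate. The genes of this cluster encode cytosolic forms, of which Car1 and Car2 are known for their abundance in red blood cells, Car3 for skeletal muscle, fat and liver, and Car13 for a wide spread over tissues. The fetal liver is the main site where red blood cells form in mid-gestation, so erythroid cells make up much of the organ together with hepatoblasts. Cytosine methylation at CpG sites is commonly low at active CpG-rich promoters and is lost at many regulatory regions of cells that use them.

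The mice were inbred FVB/NJ animals of the Line3 background. Every animal, control or mutant, carried on both chromosomes an array of GFP reporter copies whose expression depends on human alpha-globin regulatory DNA (its promoter and HS-40). The mutants were homozygous for MommeD28, an allele of Rlf from a chemical (ENU) mutagenesis screen, and mutants and wild-types came from matings of heterozygotes. Whole genome bisulphite sequencing (WGBS) covered whole embryos at E10.5 and fetal livers at E14.5 and at E18.5, each stage with 2 wild-type and 2 mutant libraries (12 in all). The E10.5 embryos were all male, the E18.5 livers all female, and each E14.5 group held 1 of each sex, so stage, tissue and sex cannot be told apart between tissues. RNA was sequenced from 3 wild-type and 3 mutant E14.5 livers, 2 male and 1 female in each genotype. Embryos and livers were used whole, so each value averages over mixed cells, and fewer cells of a type cannot be told apart from less RNA per cell. The authors cite erythroblasts as the largest part of liver cells at E14.5 and hepatoblasts at E18.5. Between the livers, a change in cell mix therefore cannot be told apart from a change of methylation within cells. RNA libraries held 12928313 to 14621004 counted reads, and WGBS libraries held 14.7 to 16.7 reads per CpG at E10.5, 28.8 to 32.6 at E14.5 and 15.9 to 16.4 at E18.5. Rlf RNA was 70.4 ± 1.73 CPM (counts scaled to the library total) in wild-types and 74.6 ± 6.28 CPM in mutants (SD, n = 3 each), so its level gives no check of the genotype labels. The liver label was borne out by albumin (Alb) and alpha-fetoprotein (Afp), with summed hepatoblast markers of 56823 to 80476 CPM over the 6 livers. Erythroid markers summed to 39710 to 69625 CPM.

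The 4 genes lie within 259043 bp of chromosome 3 (mm9). Car13 (ENSMUSG00000027555) spans chr3:14641727-14663002 on the plus strand, Car1 (ENSMUSG00000027556) chr3:14766217-14778459 on the minus strand, Car3 (ENSMUSG00000027559) chr3:14863538-14872351 on the plus strand and Car2 (ENSMUSG00000027562) chr3:14886426-14900769 on the plus strand, each with 7 exons. The gaps between neighbours measured 103214, 85078 and 14074 bp in that order, and the pseudogene Gm5843 was the one other annotated gene in the region. The start regions differed widely in CpG content. The 250 bases before the Car2 start held 30 CpGs, more than 93.4% of 22362 protein-coding promoters of the same length, while the Car1 promoter held 0, as did 7.52% of promoters. Both are shown because they mark the ends of this range, and they were read from the mm9 reference on the strand of each gene with each CpG in capitals (Car1 chr3:14778460-14778709, Car2 chr3:14886176-14886425).
Car1 promoter: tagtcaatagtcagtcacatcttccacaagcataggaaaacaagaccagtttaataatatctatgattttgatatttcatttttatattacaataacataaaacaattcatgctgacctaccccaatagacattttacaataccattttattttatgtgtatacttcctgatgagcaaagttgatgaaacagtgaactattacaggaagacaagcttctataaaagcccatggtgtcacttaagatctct
Car2 promoter: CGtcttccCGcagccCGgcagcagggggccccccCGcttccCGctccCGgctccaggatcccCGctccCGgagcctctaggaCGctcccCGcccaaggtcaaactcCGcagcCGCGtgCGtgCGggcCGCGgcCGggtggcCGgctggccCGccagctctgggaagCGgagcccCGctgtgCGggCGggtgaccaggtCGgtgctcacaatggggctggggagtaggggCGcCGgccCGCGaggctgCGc

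The Car13 promoter held 12 CpGs and the Car3 promoter 9. A search on both strands for the letters AGATAA, a motif of the erythroid factor Gata1, found none in the 4 promoters, and 9.33% of all promoters held a match. The letters TATAAA matched at −169 and −32 from the Car1 start and at −57 from the Car3 start, against a match in 12.3% of promoters. The letters CCNCNCCC, like the CACCC box, matched 3 times before Car2, 2 times before Car13, 1 time before Car3 and not before Car1, with a match in 50.6% of promoters. CCAAT matched before Car13, Car1 and Car3 (35.0% of promoters), and the E-box CAGNTG before Car3 (42.2%). These are matches of letters and were not tested for binding.

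A second pair of sequences is shown for the methylation changes beside Car2 described further on. The first stretch, chr3:14879118-14879259 on the plus strand, lay between Car3 and Car2 at −7308 to −7167 bp from the Car2 start, and the second, chr3:14887716-14888014 on the plus strand, covered the end of Car2 intron 1 and most of coding exon 2, beside the CpG-rich start. Both were chosen after their values were seen, and CpGs are in capitals.
Stretch before Car2: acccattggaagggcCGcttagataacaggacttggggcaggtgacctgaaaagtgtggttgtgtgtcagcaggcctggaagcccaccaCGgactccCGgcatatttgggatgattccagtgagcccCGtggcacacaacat
Car2 exon 2 stretch: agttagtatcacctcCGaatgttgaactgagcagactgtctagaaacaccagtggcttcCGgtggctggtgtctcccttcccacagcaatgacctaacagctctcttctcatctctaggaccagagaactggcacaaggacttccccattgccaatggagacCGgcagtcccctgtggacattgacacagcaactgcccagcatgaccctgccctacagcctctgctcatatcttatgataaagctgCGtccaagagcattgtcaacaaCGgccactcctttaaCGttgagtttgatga

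In E14.5 livers Car2 was by far the most abundant member, and Car1 was the member whose level separated the genotypes most. Per length, the mean over the 6 livers was 1389 RPKM (reads per kilobase of exon, scaled to library size) for Car2, 55.8 RPKM for Car3, 40.4 RPKM for Car1 and 6.38 RPKM for Car13. The RPKM ranges over livers of Car3 (31.3 to 81.4) and Car1 (29.5 to 53.7) overlapped, while Car2 and Car13 stood clear of both.

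Car1, a red cell carbonic anhydrase, had 37.8, 34.8 and 37.1 CPM in wild-type livers 1 to 3 and 59.5, 63.3 and 53.4 CPM in mutant livers 1 to 3. All mutants lay above all wild-types. The ratio was 1.61-fold, a log2 fold change of 0.69 (SE 0.08), between means of 36.5 ± 1.58 and 58.7 ± 5.04 CPM (SD, n = 3 each). This is the difference for which the cluster was chosen. Over all genes edgeR's quasi-likelihood test called 197 of 14183, or 1.39%, with 0.698% higher and 0.691% lower in mutants. With 1 liver left out the calls numbered 66 to 224. The call of Car1 was fixed by the choice of the cluster, and nothing is read from it.

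Car2, the high-activity cytosolic form of red cells, had 2967, 2121 and 2627 CPM in wild-types and 2443, 2351 and 2399 CPM in mutants. The mutant values fell inside the wild-type range, with a log2 fold change of −0.10 (SE 0.10). Wild-type liver 2 was lowest and liver 1 highest for Car2, and the same order held for the summed erythroid markers, at 39710 CPM in liver 2, 57203 CPM in liver 3 and 69625 CPM in liver 1. In mutants the order differed, with erythroid sums of 49741, 47406 and 52216 CPM in livers 1 to 3, highest in liver 3 where Car2 was highest in liver 1. The part of erythroid content in the Car2 spread was not tested.

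Car3, best known from muscle and fat, had 122.6, 47.1 and 78.6 CPM in wild-types and 74.4, 103.7 and 78.3 CPM in mutants. It was the least reproducible member, with a pooled SD of 0.52 on the log2 CPM scale against 0.10 for Car1, and its log2 fold change was 0.05 (SE 0.25). Of 5 skeletal muscle markers 3 passed the filter and none was called, and their summed level was 9.38 to 31.2 CPM in wild-types and 12.3 to 38.0 CPM in mutants. The highest summed value was in liver 3 of each genotype, and Car3 was highest in wild-type liver 1 and mutant liver 2. The part of muscle tissue in the Car3 spread was not tested.

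Car13, a widely expressed cytosolic form, had 13.8, 13.3 and 13.5 CPM in wild-types and 15.6, 14.7 and 17.1 CPM in mutants. The groups did not overlap, but the log2 fold change was only 0.22 (SE 0.10). How many of all genes separate in this way was not counted, so nothing is read from it. By edgeR's test 2071 of 14183 genes had an unadjusted p under 0.05. Over the 6 livers, 3 of each genotype, so that a difference between genotypes enters the value, the correlation of log2 CPM was 0.745 between Car13 and Car1, 0.791 between Car3 and Car2 and −0.197 between Car1 and Car2, given as a description.

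**Figure D1:**
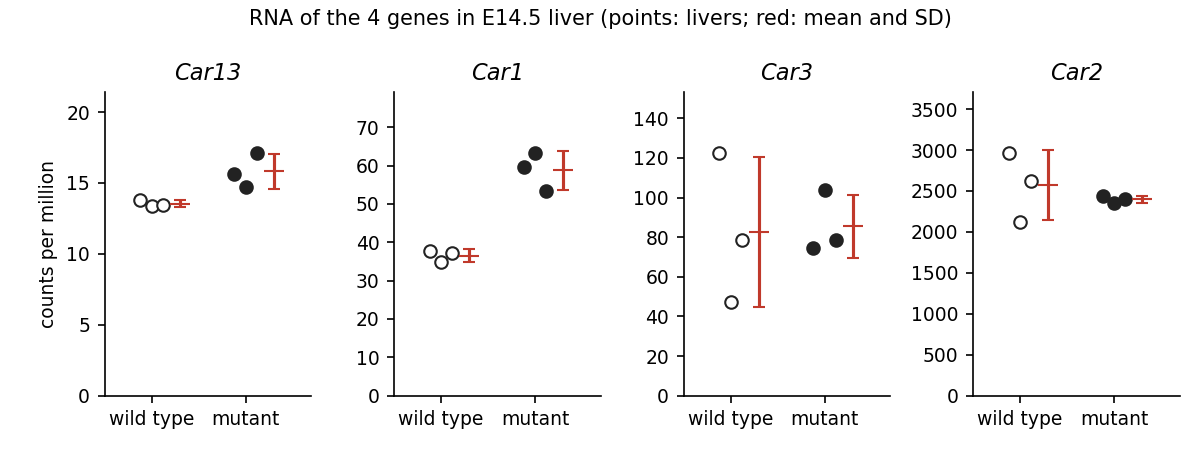
CPM of Car1, Car2, Car3 and Car13 in each E14.5 liver (open points, wild-type; filled points, mutant), with red bars for the mean ± SD of each genotype (n = 3). Mutant livers lay above wild-type livers for Car1 and Car13, and the genotypes overlapped for Car2 and Car3. How many of all genes separate in this way was not counted.

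The genes whose RNA followed Car1 most closely over the 6 livers, among 9727 genes with a mean of at least 10 CPM, were Abca8b (r = 0.994), Trip6 (r = 0.990), 4933421E11Rik (r = 0.988), Ccng2 (r = 0.988) and Zfp874b (r = 0.988). All 5 were higher in each mutant than in each wild-type, as a gene most like Car1 had to be. Abca8b, an ABC transporter, had 62.7 to 69.6 CPM in wild-types and 91.4 to 111.1 CPM in mutants.

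No carbonic anhydrase gene outside the cluster was called. Of 12 such genes 6 passed the filter, with a median log2 fold change of −0.20 against −0.0017 over all genes tested. The summed level of the 12 was 40.1 to 45.3 CPM in wild-types and 34.8 to 38.3 CPM in mutants, without overlap. As how often summed levels separate with so few livers was not counted, nothing is read from this. Car5a, a mitochondrial form, went from 2.94 ± 0.301 to 1.90 ± 0.121 CPM (SD, n = 3 each; edgeR adjusted p = 0.179), and Car12, a membrane form, from 0.889 ± 0.336 to 1.44 ± 0.203 CPM (edgeR adjusted p = 0.347). Car14, another membrane form, was the most abundant of them, at a mean of 7.19 RPKM over the 6 livers, and had a log2 fold change of −0.14, Car8, a catalytically inactive relative, −0.27, Car7 −0.26 and Car9 0.10.

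Genes that move bicarbonate, protons or carbon dioxide also gave no call. Of 21 genes 13 passed the filter, 0 were called in either direction, and the median log2 fold change was −0.09, with Slc9a3 at 0 reads in all livers. Among the alternatives given at the end, a block for replicate number gave a lower call and no count filter a higher call. Slc4a1 (band 3), the chloride-bicarbonate exchanger of the red cell membrane, had a log2 fold change of −0.09 (SE 0.10), and Rhag, of the Rh complex, −0.08 (SE 0.08).

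Markers of other cells were counted beside Car1. None of 22 erythroid markers was called, their median log2 fold change was −0.12 and Tfrc, the transferrin receptor, was the 1 with a positive value. None of 12 factors known to act on erythroid genes was called, and Klf1, a red cell master regulator, had a log2 fold change of −0.21 (SE 0.08). None of 4 early progenitor, 10 hepatoblast or 5 macrophage markers was called. All 4 early progenitor markers had positive values (median log2 fold change 0.27), and their summed levels overlapped between genotypes. Summed hepatoblast markers were 56823 to 67460 CPM in wild-types and 69335 to 80476 CPM in mutants, without overlap, and Alb had a log2 fold change of 0.27 (edgeR adjusted p = 0.151). How often summed levels separate with so few livers was not counted, so nothing is read from it. Over all genes tested 0.698% were called higher and 0.691% lower. Of 5 megakaryocyte markers 1 rose, Pf4 (log2 fold change 0.40, edgeR adjusted p = 0.0143), and the summed level was 474 to 495 CPM in wild-types and 557 to 627 CPM in mutants. Of 5 neutrophil markers 3 fell, Ngp by 0.93, Ltf by 0.86 and Elane by 0.76 on the log2 scale (edgeR adjusted p = 0.0143, 0.0333 and 0.0493), while the summed level overlapped between genotypes. The part of these cell types in the Car1 difference was not tested. No megakaryocyte marker was called without wild-type liver 3 or mutant liver 3, no neutrophil marker without mutant liver 1 or 3, and 4 erythroid markers were called lower without wild-type liver 2. The fits with 1 liver left out called 39 to 127 of all genes lower and 27 to 97 higher.

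Methylation was then taken over the window from 1 kb before to 1 kb after each transcription start, as the percent of reads methylated over the CpGs that all 12 libraries covered by 6 reads or more. The 4 start windows fell into 2 kinds, CpG-rich starts with at most 15.1% methylation at Car2, Car13 and Car3 and a highly methylated CpG-poor start at Car1. The Car2 window held 107 CpGs, the Car13 window 52, the Car3 window 43 and the Car1 window 4, of which 102, 39, 32 and 2 were usable. With 2 usable CpGs the Car1 window was left out of the fit over 20249 windows and rests on the exact test alone. In wild-type E14.5 liver 7.63% of windows had a lower level than Car2, 50.2% a lower level than Car13 and 59.3% a lower level than Car3.

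Car1 was methylated in every library. The level was 92.9% and 97.3% in wild-type and 83.7% and 93.8% in mutant embryos, 60.3% and 73.8% in wild-type and 67.1% and 65.7% in mutant E14.5 livers, and 78.8% and 76.1% in wild-type and 78.6% and 79.5% in mutant E18.5 livers. The tissues did not overlap, and the mean went from 91.9 ± 5.78% in the embryo to 66.7 ± 5.57% at E14.5 and 78.2 ± 1.50% at E18.5 (SD, n = 4 each). Each of the 3 differences, −25.2, 11.5 and −13.7 points, had the smallest p that 4 against 4 libraries allow (exact permutation test, two-sided p = 0.0286, adjusted p = 0.0490 over 36 region tests). When any 1 E18.5 library was left out, the differences between E18.5 and the other tissues no longer passed (exact p = 0.0571). With the mean over all 1 kb tiles of its own library taken off each value, an alternative added after the data were seen, the differences were −7.79 (exact p = 0.0571), 5.85 (exact p = 0.0857) and −1.94 points (exact p = 0.514), and none passed. That mean weighs each tile equally, while a window level pools reads over its CpGs, so the measures are unlike. The CpG nearest to the Car1 start, 105 bp into the gene, had at most 7 reads in any library, so the window says little about the start itself.

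Car2 was almost free of methylation, and least methylated in E14.5 liver. Its level was 0.965% and 1.41% in wild-type and 1.95% and 1.72% in mutant embryos, 0.226% and 0.381% against 0.333% and 0.289% at E14.5, and 0.609% and 0.988% against 1.40% and 0.649% at E18.5. All E14.5 libraries lay below all others. The level fell by 1.204 points from the embryo to E14.5 liver (exact permutation p = 0.0286, edgeR adjusted p = 9.86e-06) and rose by 0.604 points from E14.5 to E18.5 (exact p = 0.0286, edgeR adjusted p = 0.0145). Passing edgeR's test at an adjusted p under 0.05, whatever the size of the change, was common here, with 65.9% of all windows between embryo and E14.5 liver, 15.8% between the livers and 60.8% between embryo and E18.5 liver. Within 500 bp of the start the first difference was −0.0806 points (exact p = 0.314) and the second turned to −0.0184 points (exact p = 0.686, edgeR adjusted p = 0.715). The 1 kb tile over the start, with 91 CpGs, had 0.036% to 0.385% at E10.5, 0.043% to 0.256% at E14.5 and 0.041% to 0.413% at E18.5, which overlapped. The window's CpGs at 586 to 972 bp after the start also belong to the intron 1 and exon 2 tile described below, so both results share CpGs. Without wild-type E14.5 liver 1 or wild-type E18.5 liver 2 the second difference did not pass edgeR's test (adjusted p = 0.0536 and 0.0590), and leaving out any 1 E14.5 library ended both exact calls (exact p = 0.0571 to 0.0857).

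Car3 was the start with a higher level in E14.5 liver than in the embryo, at 14.3 ± 0.968% against 11.2 ± 1.65% (SD, n = 4 each). The 4 E14.5 values ran from 13.0% to 15.1% and the embryo values from 9.79% to 13.0%. The difference of 3.08 points passed edgeR's test (adjusted p = 0.0169), as did 65.9% of all windows, and not the exact test (p = 0.0571), and 6.82% of windows had a larger rise. The E18.5 mean was 12.2 ± 1.80%. Without wild-type E14.5 liver 2 the edgeR adjusted p was 0.0606. Within 500 bp the rise was 6.85 points (exact p = 0.0286).

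Car13 stayed between 4.47% and 11.1% in the 12 libraries, with tissue means of 8.27 ± 1.94%, 7.59 ± 1.44% and 7.39 ± 2.29% (SD, n = 4 each), and no tissue difference passed. Within 500 bp of the start the E14.5 level was 2.27 points below that of the embryo (exact p = 0.0286, edgeR adjusted p = 0.000144). With a change of over 15 points also required, edgeR called 24.2% of windows between embryo and E14.5 liver, 0.464% between E14.5 and E18.5 liver and 16.4% between embryo and E18.5 liver, and none of the 3 members fitted. The 94 windows between the livers became 56 without wild-type E14.5 liver 1, 62 without mutant E18.5 liver 1, 151 without mutant E18.5 liver 2, 370 without mutant E14.5 liver 2 and 402 without wild-type E14.5 liver 2.

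**Figure D2:**
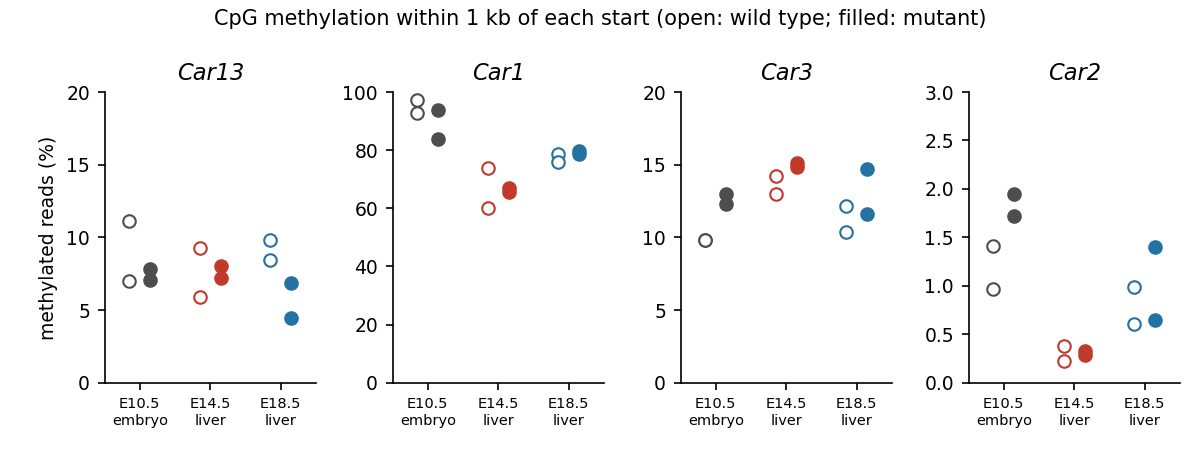
Percent of methylated reads within 1 kb of the start of each gene in the 12 WGBS libraries, by tissue (open points, wild-type; filled points, mutant), with a separate axis for each gene. Car1 lay between 60.3% and 97.3% and was lowest in E14.5 liver, and the other 3 genes stayed at or below 15.1%.

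Across the whole cluster with 10 kb on either side, the level was 68.8 ± 0.966% at E10.5, 55.4 ± 1.15% at E14.5 and 60.8 ± 2.38% at E18.5 (SD, n = 4 each), over 1099 CpGs. The tissue differences were −13.3, 5.35 and −8.00 points (exact permutation p = 0.0286 each), and the last no longer passed without wild-type embryo 2 or mutant embryo 1 or 2 (exact p = 0.0571 each). The Car1 gene body changed most among the gene bodies, from 85.8% in the embryo to 66.5% at E14.5 and 76.3% at E18.5. The Car13 body went from 67.8% to 54.1% and 57.0%, the Car3 body from 64.3% to 51.2% and 57.6%, and the Car2 body, with its large CpG-rich start, from 36.1% to 33.1% and 35.0%. The fall from embryo to E14.5 liver passed for Car1, Car13 and Car3 (exact p = 0.0286 each) and not for Car2 (exact p = 0.143). Relative to the mean over all tiles of each library, none of these falls passed. On that scale the Car1 body changed by −1.92 points (exact p = 0.143) and the Car13 body by 3.74 (exact p = 0.0857), while the Car3 body rose by 4.32 (exact p = 0.0286) and the Car2 body by 14.4 (exact p = 0.0286). A body level pools reads over CpGs while that mean weighs tiles equally, so the measures are unlike. For a body that changed little, such as that of Car2, the scale mostly returns the change of the mean with its sign turned.

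The genome as a whole moved the same way. Over 105 tiles of 1 kb in the cluster the median change from embryo to E14.5 liver was −17.2 points, against −18.0 over all 1174492 tiles, from E14.5 to E18.5 liver 5.75 against 5.66, and from embryo to E18.5 liver −9.53 against −12.1. Tiles were counted where the groups did not overlap and the means differed by more than 15 points. From embryo to E14.5 liver 56 of 105 cluster tiles were lower and 3 higher, with 62.6% and 0.846% of all tiles. From E14.5 to E18.5 liver 5 were higher and 0 lower (1.64% and 0.0268% of all tiles), and from embryo to E18.5 liver 3 were higher and 23 lower (1.25% and 33.0%). Losses were thus not more frequent in the cluster than over all tiles.

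The deepest loss lay between Car3 and Car2, in the tile chr3:14879001-14880000, centred at −6925 bp from the Car2 start. The 4 embryos had 86.5% to 91.4%, the E14.5 livers 34.0% to 48.0% and the E18.5 livers 47.3% to 59.8%. The mean difference between embryo and E14.5 liver was −50.6 points, and 0.518% of all tiles fell as far. In the stretch before Car2 printed above, the 3 CpGs measured had mean levels of 81.3% to 96.1% at E10.5, 5.74% to 10.7% at E14.5 and 17.5% to 23.3% at E18.5. These were the 3 lowest of the 6 CpGs measured in the tile at E14.5, and the other 3, at −6619 to −6596 bp, had 84.7% to 92.4%, 49.95% to 67.8% and 68.0% to 81.8% at the same stages. The tile holds 2 matches of AGATAA, 1 of them in the printed stretch, and 44.5% of all tiles hold at least 1.

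Other deep losses lay inside the genes. The tile chr3:14871001-14872000, in intron 6 and exon 7 of Car3, went from a mean of 57.5% in embryos to 15.3% at E14.5 and 26.5% at E18.5. The tile chr3:14888001-14889000, in exon 2 and intron 2 of Car2, went from 74.1% to 33.2% and 48.5%. A pair of neighbouring tiles in intron 6 of Car13, chr3:14659001-14661000, went from 86.8% and 86.2% to 47.0% and 46.2% at E14.5 and 55.6% and 55.9% at E18.5. From 1.25% to 1.68% of all tiles fell as far as these 4.

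A part of Car2 in intron 1 and exon 2 bordered the CpG-rich start and was close to unmethylated in E14.5 liver. The tile chr3:14887001-14888000, chosen after its values were seen, holds 18 usable CpGs and had 34.3% to 42.3% at E10.5, 3.05% to 4.78% at E14.5 and 8.03% to 20.8% at E18.5, with no overlap between tissues. The difference of −35.3 points between embryo and E14.5 liver is one that 3.27% of all tiles reached. The 6 CpGs of the printed Car2 exon 2 stretch had mean levels of 52.1% to 87.8%, 3.10% to 13.2% and 17.5% to 36.9% at the same stages, and the other 12 CpGs of the tile, nearer to the start, had 0% to 33.7%, 0% to 3.83% and 0% to 13.3%.

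The 3 tiles that gained methylation all lay at or beyond the 3′ end of Car2. In exon 7 the tile chr3:14900001-14901000 had 52.2% to 65.9% at E10.5, 92.6% to 92.7% at E14.5 and 92.0% to 94.0% at E18.5, and the neighbouring tile chr3:14899001-14900000 went from a mean of 55.0% to 80.3% and 81.5%. The tile chr3:14907001-14908000, centred 21075 bp after the Car2 start, went from 34.8% to 69.7% and 68.6%. From 0.108% to 0.306% of all tiles rose as far between embryo and E14.5 liver.

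Between the livers the rule took 5 tiles of the cluster, of which the largest rise, from 49.1% to 69.9%, was in chr3:14762001-14763000, which lies after the 3′ end of Car1. The exon 2 and intron 2 tile of Car2 was another, with a rise of 15.3 points.

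**Figure D3:**
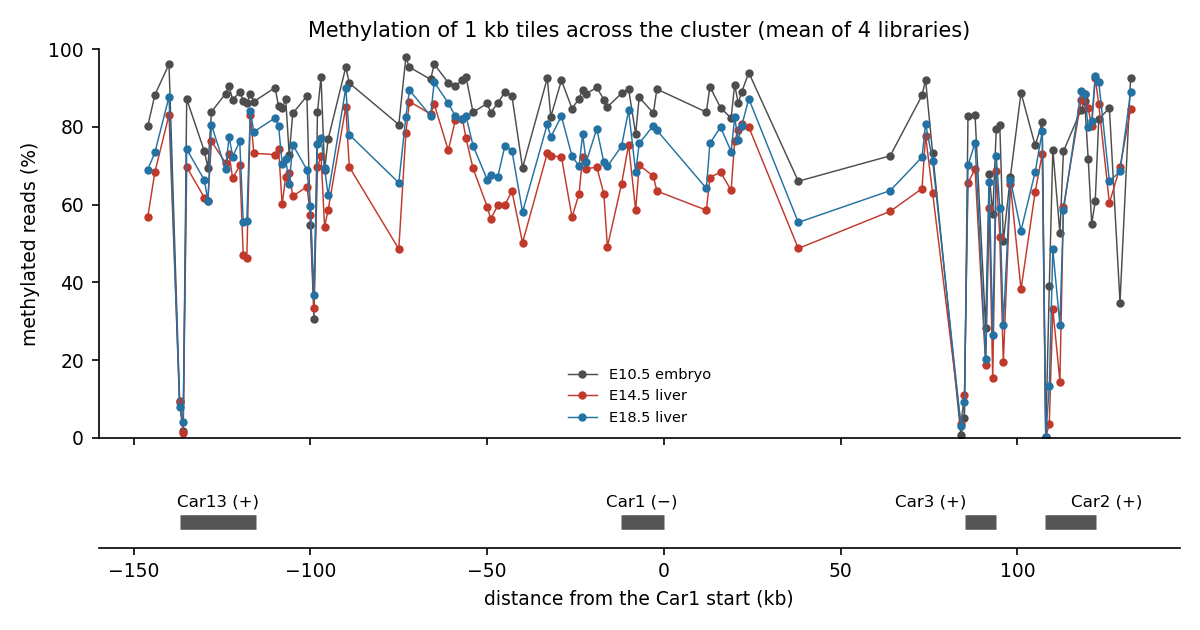
Mean methylation of 1 kb tiles along the cluster in each tissue (n = 4 libraries), plotted by distance from the Car1 start in kb, with the genes below. The E14.5 liver line ran below the embryo line over most of the cluster, with 56 tiles lower and 3 higher.

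**Figure D4:**
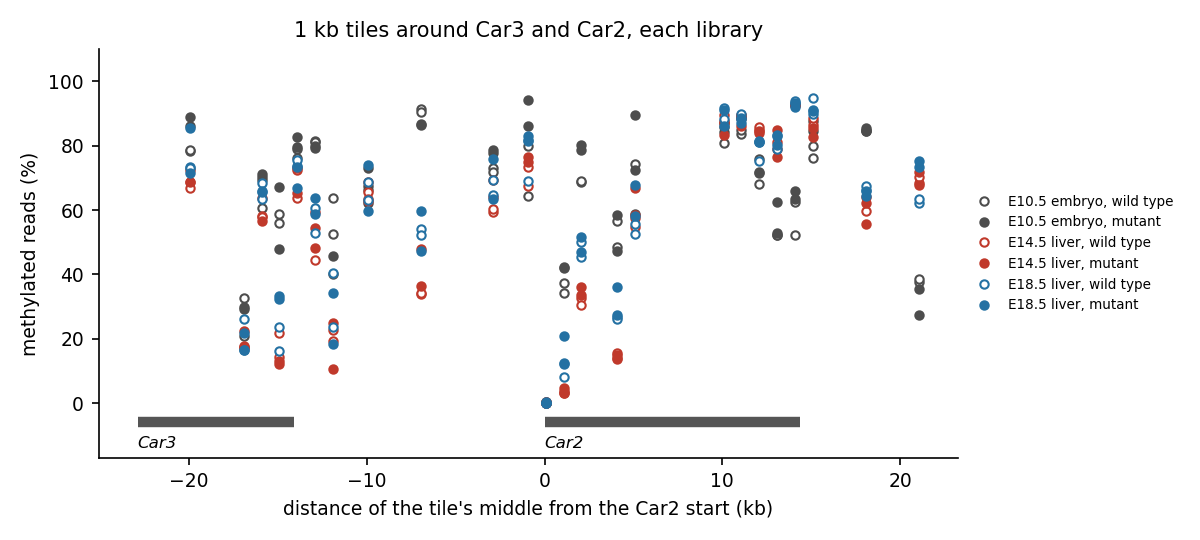
Percent of methylated reads in 1 kb tiles around Car3 and Car2 in each of the 12 libraries (open points, wild-type; filled points, mutant), by distance of the tile's middle from the Car2 start in kb, with the genes as bars. The tile at the Car2 start was near 0 in all tissues, the tile before the gene and that of intron 1 and exon 2 were lowest in E14.5 liver, and the 3′ end was higher in livers than in embryos.

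The genotypes differed little in methylation at these genes. Averaged over the 3 tissues, mutants minus wild-types gave −1.69 points at the Car13 start (exact permutation p = 0.157, with 0.31 points from 10 reads per CpG and 0.29 within 500 bp), −1.78 at the Car1 start (exact p = 0.528), 2.03 at the Car3 start (exact p = 0.0185) and 0.29 at the Car2 start (exact p = 0.139, with 1.55 points and exact p = 0.0463 within 2 kb). In E14.5 liver, the tissue of the RNA, the mutants differed from the wild-types by −0.60 points at the Car1 start, with −7.38 without wild-type liver 1, 6.17 without wild-type liver 2 and −8.66 at the other annotated start. The value at that other start rests on 1 usable CpG, 682 bp downstream of the main start, with 26 to 35 reads per E14.5 library. The smallest exact p within 1 tissue is 0.333. Within single tissues edgeR called 0.207% of windows at E10.5, 0.0593% at E14.5 and 0.104% at E18.5, and 0.183% over the 3 tissues, with none of the 3 members fitted among them. The counts within tissues, 42, 12 and 21 windows, rested on single libraries. At E10.5 they became 1 without wild-type embryo 1, 0 without mutant embryo 1 and 11 without mutant embryo 2, and leaving out any 1 library gave 2 to 3 windows at E14.5 and 0 to 1 at E18.5. At an adjusted p under 0.05 alone these shares were 0.612%, 0.128%, 0.202% and 4.58%.

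The Car3 start was higher in mutants in each tissue, by 2.81, 1.39 and 1.88 points, with an adjusted p of 0.0444 over 12 regions by the exact test and of 0.196 by edgeR over all windows. It did not pass within 500 bp of the start (0.66 points, exact p = 0.398), with CpGs weighted equally (1.49 points, exact p = 0.0741), or without wild-type or mutant E18.5 liver 2 (1.74 and 1.52 points, exact p = 0.0556 each).

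Mutants had a slightly higher mean level across the cluster in each tissue. The mean over all tiles of the genome was also higher, which was not tested. The cluster difference was 1.55 points at E10.5, 1.53 at E14.5 and 2.30 at E18.5, with a mean of 1.79 (exact p = 0.0185, adjusted p = 0.0444). Wild-type and mutant libraries had 67.6% and 68.4% against 69.3% and 69.8% at E10.5, 53.8% and 55.5% against 56.0% and 56.4% at E14.5, and 59.8% and 59.5% against 64.3% and 59.5% at E18.5. At E18.5 the genotypes overlapped, and the higher mean rested on mutant liver 1. Without wild-type E18.5 liver 1 or 2 the mean difference over tissues no longer passed (1.84 and 1.74 points, exact p = 0.130 and 0.148). The median difference over all tiles of the genome was 1.06, 1.88 and 2.14 points. Library means over all tiles were 79.6% and 79.8% in wild-types against 80.9% and 81.2% in mutants at E10.5. At E14.5 they were 60.6% and 63.3% against 64.4% and 63.6%, and at E18.5 67.3% and 67.7% against 71.7% and 67.9%. The authors, averaging over wider windows, reported no effect of the lack of Rlf on global methylation. With the mean over all tiles of its own library taken off each value, the cluster difference was −0.10 points (exact p = 0.741). That mean weighs tiles equally and the cluster level pools reads over CpGs, so the sign of this value is not read.

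Of the parts of the cluster, the interval between Car1 and Car3 differed by 2.28 points (exact p = 0.00926), the Car3 body by 4.69 (exact p = 0.0185) and the Car2 body by 3.02 (exact p = 0.0185), each with an adjusted p of 0.0444 over 12 regions. The Car1 body differed by 1.55 points (exact p = 0.231), the Car13 body by 0.36 (exact p = 0.778), the Car13 to Car1 interval by 1.19 (exact p = 0.176) and the Car3 to Car2 interval by 0.09 (exact p = 0.972). This last value averages 1.86 points at E10.5, 2.02 at E14.5 and −3.60 at E18.5. At E18.5 the interval had 34.3% and 39.0% in wild-types and 40.8% and 25.3% in mutants. Mutant liver 2 had 31.3 reads per CpG there, and the other libraries 19.15 to 23.85. Relative to the mean over all tiles the Car3 body differed by 2.80 points (exact p = 0.0278), the Car2 body by 1.13 (exact p = 0.222), the Car1 to Car3 interval by 0.39 (exact p = 0.454) the Car3 start by 0.14 (exact p = 0.907), the Car1 start by −3.67 (exact p = 0.241), the Car13 start by −3.58 (exact p = 0.0463) and the Car2 start by −1.60 (exact p = 0.00926). For starts near 0% this scale mostly returns the library mean with its sign turned.

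No tile of the cluster differed by the rule between genotypes in more than 1 tissue. At E10.5 the rule took 1 higher and 1 lower tile of 105, with 0.523% and 0.0408% of all tiles, at E14.5 it took 0 and 0, with 0.218% and 0.0158%, and at E18.5 it took 1 and 0, with 0.879% and 0.101%. The higher tile at E10.5, chr3:14885001-14886000, lay just before the Car2 start and had 80.0% and 64.3% in wild-types and 86.2% and 94.1% in mutants over 4 CpGs. The lower one, chr3:14874001-14875000 between Car3 and Car2, differed by −15.3 points. The tile at E18.5, chr3:14776001-14777000 around exon 3 of Car1, had 77.4% and 61.3% in wild-types and 92.5% and 85.4% in mutants over 4 CpGs. At E14.5, where Car1 RNA was measured, the same Car1 tile had 55.1% and 68.8% in wild-types and 61.8% and 68.3% in mutants, which overlapped.

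**Figure D5:**
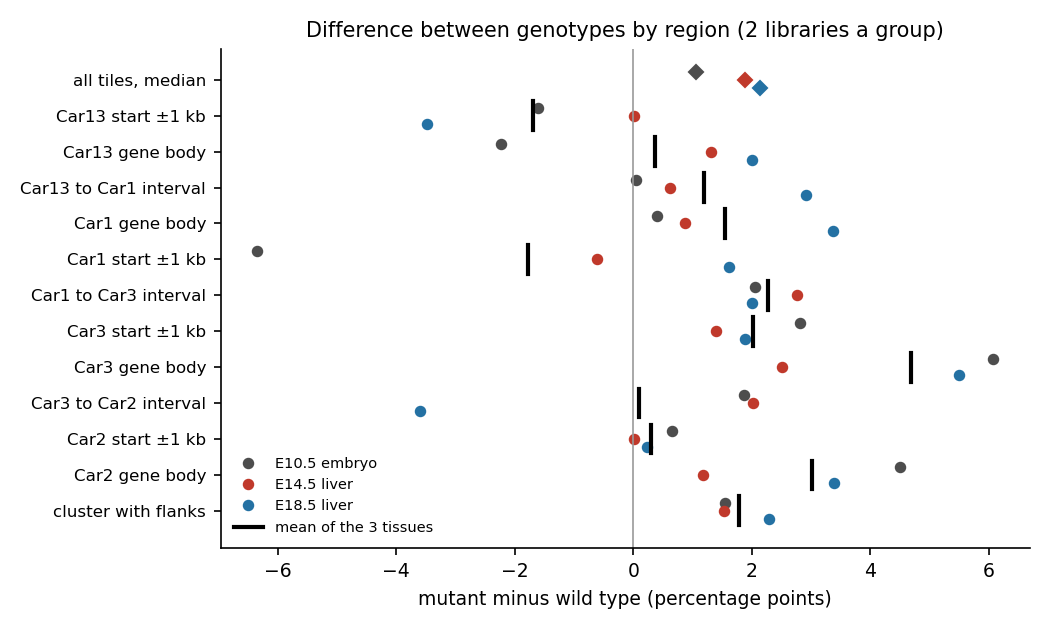
Difference in methylation between mutants and wild-types, in percentage points, for each part of the cluster in each tissue, with a black line for the mean over the 3 tissues and diamonds for the median over all tiles of the genome. Of the means over tissues, the largest were those of the Car3 body (4.69) and the Car2 body (3.02).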

How the data were processed

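RNA was measured in 6 E14.5 livers and CpG methylation in 12 WGBS libraries. The members and gene lists were chosen with earlier results of these data known.

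For RNA the authors aligned 50 bp single-end unstranded reads to mm9 with TopHat and deposited read counts per gene from HTSeq (Ensembl release 67), without strand, so reads of a gene and an antisense partner cannot be told apart. For WGBS the authors used Bismark with Bowtie2 on mm9 carrying FVB substitutions, removed duplicates, merged strands and deposited counts of methylated and unmethylated reads per CpG.

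From the counts, RNA was fitted with edgeR 4.0.16 (R 4.3.3), with low counts filtered by filterByExpr and TMM scaling, and genes were called at an adjusted p under 0.05 (Benjamini-Hochberg). CPM and RPKM were computed from the counts, with exon lengths from the annotation. Start windows (1 kb to either side, at least 4 CpGs with 6 reads in all 12 libraries) were fitted with edgeR as methylated against unmethylated counts, and called at an adjusted p under 0.05 with a difference above 15 points. Regions were tested by exact two-sided permutation of libraries: 6 assignments within a tissue (smallest p 0.333), 216 over the 3 tissues (0.00926) and 70 between tissues (0.0286). All were tested on simulated data. Percentages pool reads over CpGs and carry counting error that these tests do not separate from the spread between libraries. The E14.5 WGBS livers came from littermates and litters of the other libraries are not given in the sources used here, so p-values measure the spread between libraries of a group. Named were the members, Rlf, the other carbonic anhydrases tested, up to 5 genes a list (called genes first, then by CPM), the 5 genes most like Car1 and genes inside the cluster. The plan was to name the 5 tiles with the largest difference in each contrast. Not all of these are named, and other tiles past the rule were named after their values were seen. Sequences and annotation (GENCODE) came from mm9, which is not the FVB sequence. DESeq2 1.42.0, other filters, windows, read minimums and tile sizes were tried as alternatives.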

Additional observations from a re-analysis of the deposited data

Results flagged for a closer look

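In E18.5 liver, mutant library 1 stood apart from the other 3 libraries in methylation across the cluster. It had 64.3% over the cluster with 10 kb on either side, where the others had 59.5% to 59.8%, and 64.3% over the cluster without these flanks, where the next had 59.4%. The gap to the nearest library made up 0.944 and 0.958 of the whole range of the 4 libraries. Both values come from the same reads. The same library was also the highest over all tiles of the genome, at 71.7% against 67.3% to 67.9%. In all 39 groups were looked at this way, and chance takes about 1 in 20.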

How the results depend on the processing

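Of 93 results and 1093 refits, 885 refits were counted as the same, 43 reversed, 42 lost the call, 21 gained it and 102 moved. For tested values the same meant that direction and side of the threshold were kept. Passing in these refits meant an exact p under 0.05 without adjustment, or an edgeR adjusted p under 0.05. For the exact tests this is laxer than the adjusted p over regions given above. An untested value was the same where it moved by less than the SD within groups, even with a change of sign. A count was the same where it stayed close to the main count. Causes were not tested.

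RNA calls numbered 532 without the count filter (317 higher, 215 lower) and 66 to 224 with 1 liver left out (27 to 97 higher, 39 to 127 lower). Without the filter the lists gave 1 higher transport gene, 1 higher hepatoblast marker and 2 higher megakaryocyte markers, and DESeq2 gave 2 higher megakaryocyte and 1 lower neutrophil marker. With 1 liver left out, erythroid calls (lower) numbered 0 to 4 and megakaryocyte (higher) and neutrophil (lower) calls 0 to 2. The log2 fold change of Car1 stayed at 0.63 to 0.75 and that of Car13 at 0.16 to 0.27 with 1 liver left out.

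Replicate numbers were tried as a block. Over 14179 genes same-numbered livers correlated at 0.055, 0.181 and 0.347, and 5 of 6 livers correlated best with their own number, a hint from the data and not the design. With the block 460 genes were called (263 higher, 197 lower), with 1 lower transport gene and 2 higher megakaryocyte markers, and the members had log2 fold changes of 0.22, 0.68, 0.12 and −0.09 (Car13, Car1, Car3, Car2). Same-numbered WGBS libraries correlated at 0.0548, 0.404 and −0.0437 over 20249 windows, with the E14.5 number also marking sex, and 2 pairs a tissue cannot decide a pairing. With the block 79, 36 and 53 windows were called between genotypes at E10.5, E14.5 and E18.5, against 42, 12 and 21, and 151 against 94 between livers, and no start of a member changed its call.

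At the Car13 start, the genotype difference at E18.5 was −2.05 points from 1 read per CpG, 0.69 from 10 reads, 0.67 within 500 bp and 0.28 as a mean over CpGs, and over the 3 tissues 0.31 from 10 reads and 0.29 within 500 bp. The E14.5 minus E10.5 difference passed from 10 reads (−2.34), within 500 bp (−2.27) and as a mean over CpGs (−3.54), the E18.5 minus E14.5 difference reversed to 0.94, 0.89 and 1.72 in that order, and the mean over CpGs gave −1.82 for E18.5 minus E10.5. With 1 library left out the Car13 differences ranged from −2.38 to −1.01 between genotypes (passing without wild-type E14.5 liver 2, exact p = 0.0370), −1.25 to 0.27 for E14.5 minus E10.5, −1.002 to 0.77 for E18.5 minus E14.5 and −1.68 to 0.093 for E18.5 minus E10.5.

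At the Car1 start, the other annotated start gave a genotype difference of −8.66 at E14.5 and −2.10 at E18.5 and an E18.5 minus E10.5 difference of −8.88 that did not pass, and 1 read per CpG gave 0.10 (genotype, E18.5) and 10.46 (E18.5 minus E14.5, not passing). The values at the other annotated start rest on 1 usable CpG. Leaving out 1 library gave ranges from −4.03 to 0.48 between genotypes, 9.36 to 13.9 for E18.5 minus E14.5 and −16.4 to −11.9 for E18.5 minus E10.5.

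At the Car3 start, 500 bp gave genotype differences of 0.30 (E10.5), 0.51 (E14.5) and 0.66 (3 tissues) and tissue differences that passed, 6.85 (E14.5 minus E10.5) and 4.64 (E18.5 minus E10.5). At 2 kb the E10.5 genotype difference was 3.83. The mean over CpGs gave 0.62 (E10.5), 2.38 (E14.5), 1.49 (3 tissues) and −0.11 (E18.5 minus E10.5). Leaving out 1 library gave ranges from 1.52 to 2.54 between genotypes and 2.60 to 3.66 for E14.5 minus E10.5.

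At the Car2 start, 2 kb gave genotype differences of 2.29 (E10.5), 1.05 (E14.5), 1.30 (E18.5) and 1.55 (3 tissues, passing), 500 bp gave −0.00047 (genotype, E10.5), −0.0806 (E14.5 minus E10.5) and −0.0184 (E18.5 minus E14.5), and the mean over CpGs gave −0.91 for E18.5 minus E10.5, which passed. With 1 library left out the values ranged from 0.17 to 0.42 between genotypes (passing without mutant E18.5 liver 2, exact p = 0.0463), −1.39 to −1.06 for E14.5 minus E10.5 and 0.44 to 0.70 for E18.5 minus E14.5.

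The edgeR log2 odds ratios that reversed were those of Car13 from 10 reads between genotypes (0.016 at E10.5, 0.50 at E18.5, 0.26 over tissues) and livers (0.87), of Car13 within 500 bp between genotypes (0.49 at E18.5, 0.26 over tissues) and livers (0.85), and of Car2 within 500 bp between genotypes at E14.5 (−0.81) and between livers (−0.81). With 1 library left out, those of Car13 ranged from −0.63 to 0.093 (genotype, E10.5), −0.32 to 0.40 (genotype, E14.5), −0.31 to 0.058 (E14.5 minus E10.5) and −0.25 to 0.11 (between livers), and those of Car2 from −0.29 to 0.46 (genotype, E14.5) and −0.29 to 0.83 (genotype, E18.5).

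Relative to the mean of all tiles of each library the cluster differences reversed, to −0.10 between genotypes, 4.03 (E14.5 minus E10.5), −0.32 (E18.5 minus E14.5) and 3.71 (E18.5 minus E10.5). The mean weighs tiles equally and the cluster level pools reads over CpGs, so these signs are not read. Tile against tile, the median change was −17.2 in the cluster against −18.0 over all tiles (E14.5 minus E10.5) and 5.75 against 5.66 (E18.5 minus E14.5). Less the mean of all tiles, the Car13 start gave −3.58, 16.7, −5.87 and 10.8 for the same 4 contrasts (all passing), the Car1 start −7.79, 5.85 and −1.94 between tissues (none passing), the Car3 start 0.14 (not passing), 20.5, −7.76 and 12.7 (the last 3 passing), and the Car2 start −1.60, 16.2, −5.06 and 11.1 (all passing). The Car13, Car3 and Car2 starts lie low and moved little between tissues as measured. Their tissue values here mostly return the change of the mean with its sign turned, so nothing is read from their passing. With 1 library left out the measured cluster differences ranged from 0.98 to 2.60 between genotypes and from −9.19 to −7.58 for E18.5 minus E10.5.

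Tile counts for genotype were 0 at E10.5 and 0 at E18.5 with at least 8 CpGs, 0 at E18.5 with 2 kb tiles, 3 at E14.5 and 5 at E18.5 above 10 points, and 2 at E18.5 from 1 read. For E14.5 minus E10.5 they were 12 with at least 8 CpGs and 106 from 1 read, for E18.5 minus E14.5 0 with at least 8 CpGs, 8 with 2 kb tiles, 14 above 10 points and 13 from 1 read, and for E18.5 minus E10.5 3 with at least 8 CpGs, 47 above 10 points and 43 from 1 read. These counts are of 32 tiles with at least 8 CpGs, 102 tiles of 2 kb and 161 tiles from 1 read, against 105, and for E14.5 minus E10.5 the shares of all tiles lower and higher were 52.0% and 1.17% with at least 8 CpGs and 67.5% and 0.638% from 1 read. For genotype the shares of all tiles higher were 0.55%, 0.453%, 0.476%, 2.22%, 5.22% and 1.43% in the order above. For E18.5 minus E14.5 the shares higher were 0.654%, 1.35%, 10.8% and 2.44%. For E18.5 minus E10.5 the shares lower and higher were 23.6% and 1.72% with at least 8 CpGs, 55.9% and 1.79% above 10 points, and 36.4% and 0.965% from 1 read. With 1 library left out the count for E18.5 minus E14.5 ranged from 2 to 8. The shares of all tiles were not counted in these fits and smaller groups overlap less easily, so nothing is read from this range. For genotype, leaving out 1 library leaves 1 in a group, so no counts are given. Depth limits single CpGs and 4-CpG tiles, and reads per CpG were fewer at E10.5 and E18.5 than at E14.5.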
